A study of Mus musculus with 10 samples.

Results

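The glutathione transferases described here were 6 mouse genes, Gstm1, Gstm3, Gstp1, Gstt1, Gsta3 and Mgst3, out of 8251 genes measured in liver RNA on Affymetrix MG_U74Av2 arrays. Members were chosen by gene name, with earlier results of these data known. Each has at least 1 probe set of its own in the platform annotation, as have 12 other transferase genes. Shares of members passing a test therefore describe these 6 genes and not the family. The brightest probe set of a gene, by its mean of the 10 arrays, stood for it, and any other probe set served as a check. All 6 were measured, with mean signals above those of 63.7% (Mgst3) to 99.8% (Gstm1) of all genes.

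The 5 groups were all male mice, and each was 1 pool of RNA from 5 livers hybridised to 2 arrays. TgSREBP-1a and TgSREBP-2 mice carried human SREBP-1a or SREBP-2 in its active nuclear form. These mice and wild type littermates, aged 12 to 16 weeks, ate a diet high in protein and low in carbohydrate for 2 weeks to drive the transgenes. Scap-/- mice carried MX1-Cre, a recombinase gene that interferon signals switch on, and lacked SCAP, the escort protein of SREBP activation, in liver. These mice and a wild type group, aged 10 to 12 weeks, ate Teklad chow and received 4 injections of polyinosinic-polycytidylic acid, the last 14 days before the livers were taken. The wild type mice were thus injected as well, and the promoter of the transgenes is not given in the sources used here. The study's title gives its aim as finding direct SREBP target genes. The 2 arrays of a group are hybridisations of the same pool, so every error and p-value below measures the spread between hybridisations and compares pools, with no error between mice.

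Glutathione transferases join the tripeptide glutathione to electrophilic compounds, which makes these more soluble and ready for export from the cell. The cytosolic enzymes are dimers grouped by sequence into classes, among them alpha, mu, pi and theta, while the microsomal enzymes are membrane proteins of a separate family. Liver is rich in them, and many respond to drugs and oxidants through the transcription factor NRF2 (gene Nfe2l2) and through nuclear receptors such as CAR and PXR.

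The 250 bases before the annotated start of 4 members are shown because these genes moved in different ways: Gstm3 rose in TgSREBP-1a and in Scap-/-, Gstp1 fell in both transgenic pools, Gsta3 fell in Scap-/-, and Mgst3 rose in all 3. Capitals mark matches, on either strand, to the letters TGACNNNGC (antioxidant response element core), TGANTCA (AP-1), TCACNCCAC (sterol regulatory element), CACGTG (E-box), CCAAT (NF-Y) and GGGCGG (Sp1). Sequences are from RefSeq on GRCm38.p6, each read 5′ to 3′ on the strand of its gene.
Gstm3, chr3:107969175-107969424, minus strand: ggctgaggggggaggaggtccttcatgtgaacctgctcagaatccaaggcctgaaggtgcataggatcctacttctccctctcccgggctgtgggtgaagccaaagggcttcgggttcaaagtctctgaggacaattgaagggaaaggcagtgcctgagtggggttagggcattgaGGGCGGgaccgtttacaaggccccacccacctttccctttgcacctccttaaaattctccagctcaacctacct
Gstp1, chr19:4037913-4038162, minus strand: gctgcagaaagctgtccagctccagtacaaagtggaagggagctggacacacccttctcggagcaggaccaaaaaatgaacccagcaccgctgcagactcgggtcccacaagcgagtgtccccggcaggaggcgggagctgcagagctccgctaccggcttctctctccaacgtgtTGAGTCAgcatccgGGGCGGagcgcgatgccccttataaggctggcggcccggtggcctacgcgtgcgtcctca
Gsta3, chr1:21240335-21240584, plus strand: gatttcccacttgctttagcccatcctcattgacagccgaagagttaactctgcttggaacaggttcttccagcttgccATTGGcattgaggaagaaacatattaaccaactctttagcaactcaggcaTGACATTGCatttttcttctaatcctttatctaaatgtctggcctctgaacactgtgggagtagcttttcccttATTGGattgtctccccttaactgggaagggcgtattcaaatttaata
Mgst3, chr1:167393842-167394091, minus strand: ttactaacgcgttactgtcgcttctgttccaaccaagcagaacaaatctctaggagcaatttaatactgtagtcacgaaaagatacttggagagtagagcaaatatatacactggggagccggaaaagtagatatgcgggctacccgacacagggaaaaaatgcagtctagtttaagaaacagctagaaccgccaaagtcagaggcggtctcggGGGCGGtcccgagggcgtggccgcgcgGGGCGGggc

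Gsta3 alone of the 6 members held the antioxidant response core in this window, as TGACATTGC at positions -121 to -113 from its start. The same letters occur in 10.2% of the 32851 promoter windows in the table. Gstp1 alone held the AP-1 letters, TGAGTCA at -74 to -68, which 6.75% of windows hold. No member, including both annotated starts of Gstm1 and the 1 start of Gstt1, had a match to the sterol regulatory element (1.05% of windows) or the E-box (6.02%). The start used for Gstt1, at chr10:75797731, lies inside the span given for the gene below. The bases before the outer end of Gstt1 were thus not searched. The start used for Gsta3, at chr1:21240585, lies slightly inside its span as well. Sp1 letters occurred in Gstm3, Gstp1 and, at 2 places, Mgst3 (32.7% of windows), and NF-Y letters in Gsta3, Gstm1 and Gstt1 (33.8%). The window before the inner start of Gstm1 aligned with that of Gstm3 at 58.1% of positions, against 43.1% to 54.1% for the other pairs of windows.

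Alb, the albumin gene and a liver marker, had a log2 signal of 13.48 to 13.85 on all arrays. Ctrb1, an exocrine pancreas marker, came close to it in some high-protein pools. Its log2 signals were 13.20 and 13.25 on TgSREBP-2 arrays, 12.81 and 12.90 on littermate wild type arrays, but 8.57 and 8.63 on TgSREBP-1a arrays. Chow-fed wild type had 11.63 and 11.61, Scap-/- 8.71 and 8.56. The liver label thus did not cover every bright marker, and the source of the pancreas signal was not tested. No probe set carries the name Scap or Srebf2 in the annotation, so the deleted gene was not analysed here. Srebf1, itself an SREBP target, had log2 signals of 10.57 and 10.52 in TgSREBP-1a and 10.01 and 10.04 in TgSREBP-2, against 8.68 and 8.70 in their wild type littermates. It had 8.59 and 8.60 in Scap-/- livers against 10.07 and 10.14 in their wild type. Duplicate arrays were closer in the chow groups, where 0 to 6 genes differed by 1.5-fold or more within a pool, than in the high-protein groups, where 55 to 151 did. Among the members the widest gap was that of Gsta3 in TgSREBP-1a, 0.59 on the log2 scale.

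In TgSREBP-1a livers 4 members rose (Gstm3, Mgst3, Gstm1 and Gstt1), Gstp1 fell, and Gsta3 did not pass the test. A gene passed at an adjusted p under 0.05 in limma, with Benjamini-Hochberg adjustment over all 8251 genes, and at least a 1.5-fold difference. That made 5 of 6 members, while 7.37% of all genes passed, 4.78% higher and 2.59% lower. In TgSREBP-2 livers, set against the same wild type pool, Mgst3 rose and Gstp1 fell, 2 of 6, while 2.57% of all genes passed (2.18% higher, 0.388% lower). Directly between the transgenic pools, Gstm3, Gstm1 and Gstt1 were higher and Gsta3 lower in TgSREBP-1a, 4 of 6, with 5.19% of all genes passing (2.24% higher, 2.95% lower). In Scap-/- livers Gstm3 and Mgst3 rose and Gsta3 fell, 3 of 6, where 1.66% of all genes passed (0.739% higher, 0.921% lower). The median difference of the members was 0.89 in TgSREBP-1a (-0.03 over all genes), 0.06 in TgSREBP-2 (-0.02 over all genes) and 0.25 in Scap-/- (0.00 over all genes).

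**Figure D1:**
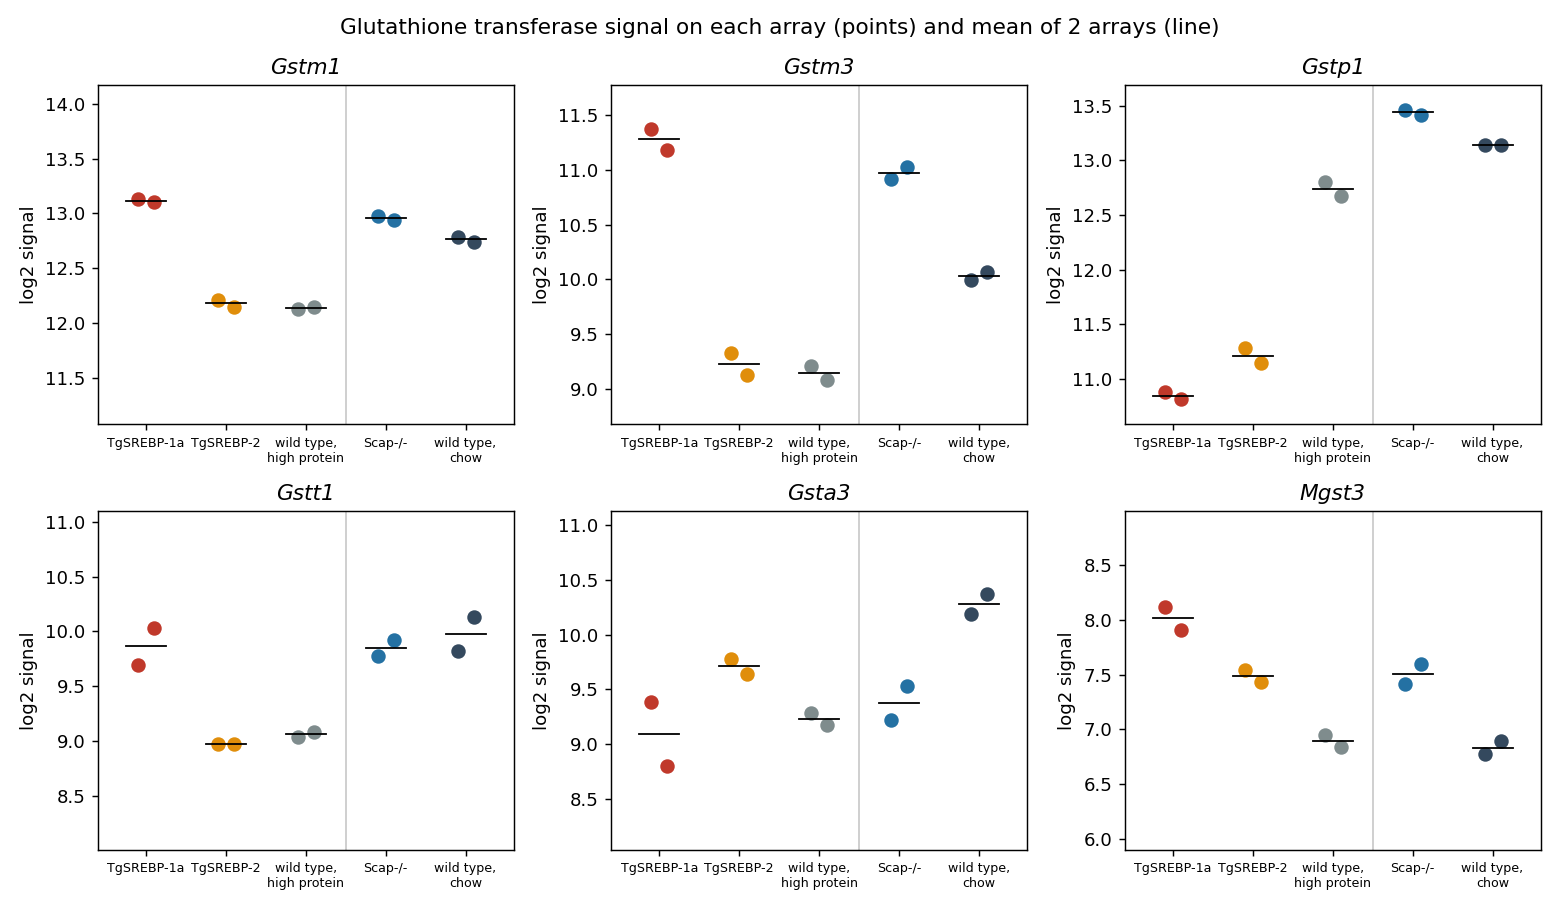
Log2 signal of the 6 members on each of the 10 arrays (points) with the mean of the 2 arrays of a pool (line); every panel spans the same height, and the grey line parts the high-protein groups from the chow groups. Gstp1 is near 11 in both transgenic pools and above 12.6 in the other 3, while Gstm1, Gstm3 and Gstt1 are high in TgSREBP-1a and low in TgSREBP-2 and its wild type.

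**Figure D2:**
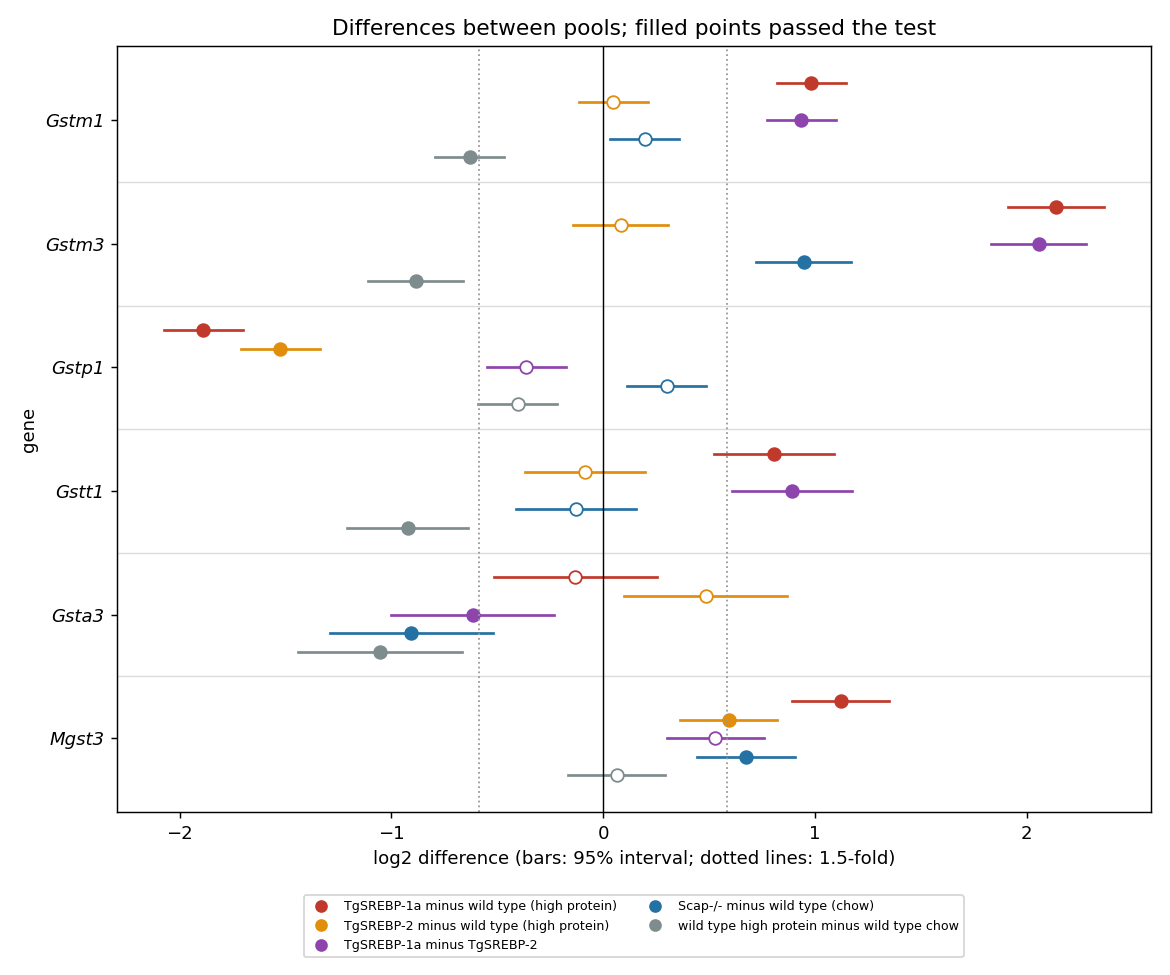
Log2 difference between pools for the 6 members, with 95% intervals from the limma fit; filled points passed the test and dotted lines mark 1.5-fold. The intervals of Gstm1, Gstm3 and Gstt1 in TgSREBP-2 include 0, and those of Gstm3 in TgSREBP-1a (1.91 to 2.36) and of Gstp1 in TgSREBP-1a (-2.07 to -1.70) lie far from it.

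Gstm3, a mu class enzyme whose gene lies at chr3:107963696-107969174, showed the largest difference of the 6. It had log2 signals of 11.37 and 11.18 in TgSREBP-1a livers, against 9.20 and 9.08 in wild type on the same diet. The pools did not overlap, and TgSREBP-1a was 4.40-fold higher (2.14 ± 0.10, SE of the limma fit, n = 2 arrays per pool, adjusted p = 1.66e-07). TgSREBP-2 livers had 9.32 and 9.12, within reach of that wild type: the difference was 0.08 ± 0.10 with a 95% interval of -0.14 to 0.31. TgSREBP-1a exceeded TgSREBP-2 by 2.06 ± 0.10, or 4.16-fold (limma, adjusted p = 3.51e-07).

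Gstm3 was also higher in the Scap-/- pool than in its wild type pool. Its signals were 10.92 and 11.03 in Scap-/- livers against 9.99 and 10.06 in chow-fed wild type, again without overlap, a 1.93-fold increase (0.95 ± 0.10, limma, adjusted p = 3.97e-04). All 12 alternative settings kept this call, with differences of 0.89 to 1.06. Its other probe set rose by 1.74 ± 0.18 in TgSREBP-1a and by 1.05 ± 0.18 in Scap-/- (both past the test over all probe sets), and stood at 0.07 in TgSREBP-2. From high to low the groups ran TgSREBP-1a, Scap-/-, chow-fed wild type, TgSREBP-2 and the littermate wild type, and only the arrays of the lowest pair overlapped.

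Gstm1, the abundant mu class enzyme of mouse liver, lies at chr3:108012250-108017973 and followed Gstm3 with smaller differences. Its log2 signals were 13.13 and 13.10 in TgSREBP-1a and 12.12 and 12.14 in littermate wild type, a 1.98-fold increase (0.98 ± 0.07, limma, adjusted p = 5.95e-06). TgSREBP-2 had 12.21 and 12.15, a difference from wild type of 0.05 ± 0.07 (95% interval -0.12 to 0.21). In Scap-/- it had 12.98 and 12.94 against 12.79 and 12.74 in chow-fed wild type. These arrays did not overlap, yet the difference of 0.20 ± 0.07 did not pass (limma, adjusted p = 0.331). The groups stood in the same order as for Gstm3.

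The bright Gstm1 probe set has the suffix _f, which Affymetrix gives to sets whose probes are shared within a gene family, as has that of Gstm3. The second Gstm1 probe set, at log2 signals of 7.25 to 7.57 on all arrays, stood at 0.03 ± 0.08 in TgSREBP-1a and did not pass in any comparison. How much of either bright signal came from related mu class transcripts cannot be told apart here. With both Gstm1 probe sets averaged, the increase in TgSREBP-1a was 0.51 (limma, adjusted p = 4.40e-04), short of 1.5-fold, and over the 12 alternatives it ranged from 0.51 to 1.31 with adjusted p up to 4.40e-04.

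The mu class genes form a cluster of 149.3 kb on chromosome 3, in the order Gstm5, Gstm7, Gstm6, Gstm3, Gstm2, Gstm1 and Gstm4, of which 5 of 7 had probe sets here. In TgSREBP-1a 7 of the 12 mu class probe sets rose and 5 were not called, where 4.23% of all probe sets rose, and each of the 5 genes had at least 1 that rose. Gstm6 rose on both of its probe sets (1.07 ± 0.08 and 0.92 ± 0.12). Gstm2 rose on its dimmer probe set (1.18 ± 0.17) while its brighter one was at -0.22 ± 0.13, and Gstm5 rose on 1 of 4 (1.40 ± 0.15), the other 3 standing between -0.14 and 0.13. In TgSREBP-2 the same Gstm5 probe set rose (0.67 ± 0.15) and no other mu class probe set passed, 1 of 12 where 1.84% of all probe sets rose. In Scap-/- the cluster was not uniform: Gstm6 fell on both probe sets (-0.74 ± 0.08 and -0.64 ± 0.12) while its neighbour Gstm3 rose on both, where 0.868% of all probe sets fell and 0.674% rose. All these values are tests over all 10833 single-gene probe sets. Sharing of transcripts between the mu class probe sets was not checked, so the 12 cannot be taken as independent measurements.

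**Figure D3:**
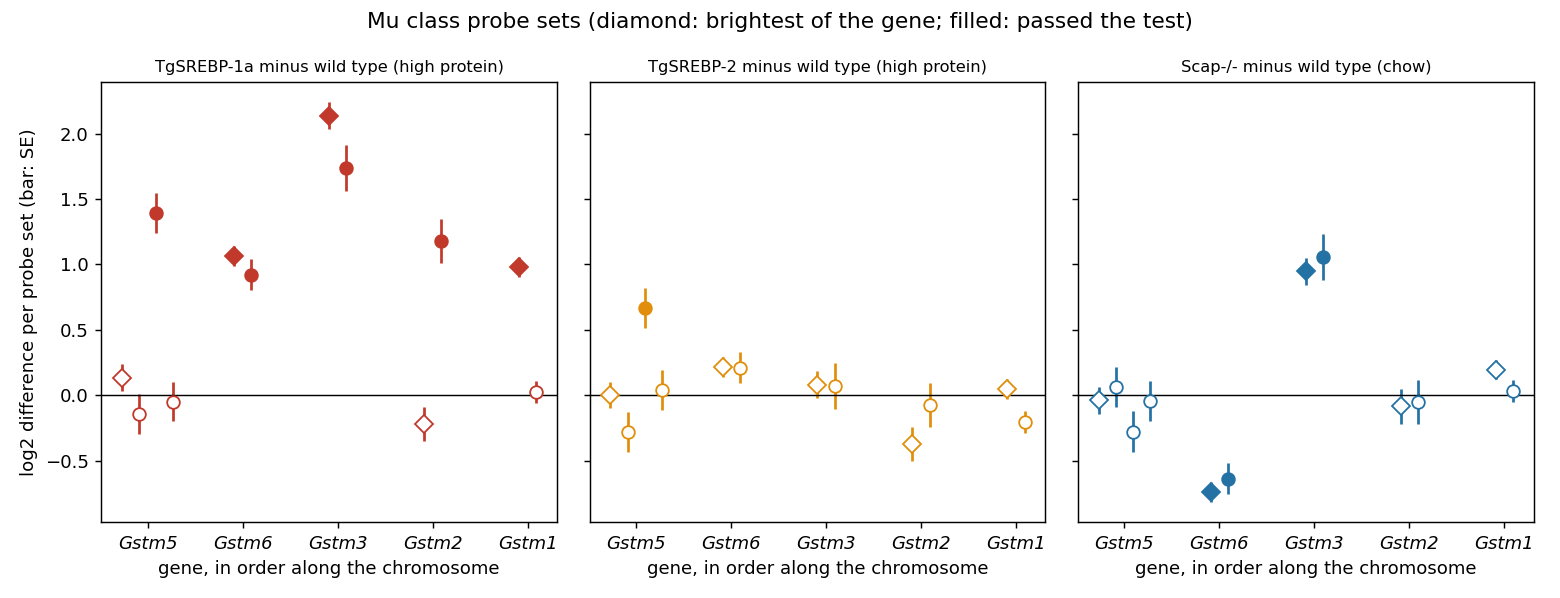
Log2 difference of every mu class probe set (bars, SE of the limma fit), with genes in their order along chromosome 3, for TgSREBP-1a, TgSREBP-2 and Scap-/- each minus its wild type; diamonds are the brightest probe set of a gene and filled points passed the test. Each gene has a filled point above 0 in TgSREBP-1a, and in Scap-/- Gstm6 lies below 0 and Gstm3 above it.

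Gstp1, the pi class enzyme, is among the brightest genes on these arrays, with a mean above 99.7% of all genes, and lies at chr19:4035411-4037912. In both transgenic pools it fell. TgSREBP-1a livers had log2 signals of 10.88 and 10.82 and TgSREBP-2 livers 11.28 and 11.15, against 12.80 and 12.67 in their wild type. Both transgenic pools lay wholly below the wild type arrays. The fall was 3.70-fold in TgSREBP-1a (-1.89 ± 0.08, adjusted p = 1.11e-07) and 2.88-fold in TgSREBP-2 (-1.52 ± 0.08, adjusted p = 1.68e-06, both limma). The pools differed from each other by -0.36 ± 0.08, short of 1.5-fold (limma, adjusted p = 0.0172).

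Scap-/- livers had Gstp1 signals of 13.46 and 13.42 against 13.14 and 13.14 in chow-fed wild type, a difference of 0.30 ± 0.08 that did not pass (limma, adjusted p = 0.127). The gene has 1 probe set, and the related genes Gstp2 and Gstp3 have none of their own name. The signal may hold their transcripts, which was not checked. In mouse liver Gstp1 is more abundant in males. For the counts that follow, 7.37% of all genes passed in TgSREBP-1a and 2.57% in TgSREBP-2. Of 5 measured male-biased genes all 5 fell in TgSREBP-1a (median -2.57) and 1 in TgSREBP-2, Hsd3b5, a steroid dehydrogenase (-1.74 ± 0.15), where all 5 had an unadjusted p under 0.05 and the median was -0.42. Of 3 female-biased genes all 3 rose in TgSREBP-1a and limma called 0 in TgSREBP-2 (3 at an unadjusted p under 0.05, median 0.25). Cholangiocytes, the cells of the bile duct, also hold Gstp1: their 5 measured markers summed to 332.1 to 361.1 linear signal units in TgSREBP-1a and 361.0 to 393.9 in TgSREBP-2, against 403.0 to 404.4 in wild type. Limma called 0 of the 5 in either comparison (1 at an unadjusted p under 0.05 in each). Krt19, their defining keratin, stood at log2 signals of 5.22 to 5.75 over all arrays, below the median of each. The part of bile duct cells or of the sex-biased genes' shift in the Gstp1 result was not tested. In whole liver RNA, fewer cells of a type and less RNA per cell cannot be told apart.

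Gstt1, the theta class enzyme that acts on small halogenated compounds, lies at chr10:75783813-75798584 and has 1 probe set. It had 9.70 and 10.03 in TgSREBP-1a, against 9.04 and 9.08 in wild type on the same diet, without overlap. The increase was 1.75-fold (0.81 ± 0.13, limma, adjusted p = 0.00153) and was kept in all 12 alternatives, from 0.64 to 0.97. TgSREBP-2 livers had 8.97 and 8.97, a difference of -0.09 ± 0.13 (95% interval -0.37 to 0.20), so TgSREBP-1a exceeded TgSREBP-2 by 0.89 ± 0.13 (limma, adjusted p = 0.00101). Scap-/- livers had 9.78 and 9.92 against 9.83 and 10.14 in chow-fed wild type, where the arrays overlapped (-0.13 ± 0.13, 95% interval -0.41 to 0.16). Gstt2, the other theta class gene measured, rose more in TgSREBP-1a, by 1.52 ± 0.10 or 2.86-fold (limma, adjusted p = 3.71e-06), and stood at 0.21 in TgSREBP-2 and 0.16 in Scap-/-.

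Gsta3, the alpha class enzyme with which mouse liver detoxifies the epoxide of aflatoxin, lies at chr1:21240565-21265575. It had log2 signals of 9.22 and 9.53 in Scap-/- livers, against 10.19 and 10.37 in chow-fed wild type, without overlap. It fell 1.87-fold there (-0.91 ± 0.17, limma, adjusted p = 0.0181). The call was lost without Scap-/- replicate 1 (adjusted p = 0.203) or wild type replicate 1 (0.0954) or 2 (0.221), over a range of 3.35e-05 to 0.221 in 12 alternatives. The high-protein groups ran otherwise: TgSREBP-1a had 9.39 and 8.80 and TgSREBP-2 9.78 and 9.64, against 9.28 and 9.17 in wild type. TgSREBP-1a arrays lay on either side of the wild type ones (-0.13 ± 0.17). TgSREBP-2 arrays lay above them, by 0.48 ± 0.17 (limma, adjusted p = 0.172).

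Between the transgenic pools Gsta3 was lower in TgSREBP-1a by a margin just past the test (-0.62 ± 0.17, limma, adjusted p = 0.0471), and 5 of 12 alternatives kept that call. Without TgSREBP-1a replicate 2 the difference was -0.32 (adjusted p = 0.244, over a range of 0.00155 to 0.244), and the call was lost too without either TgSREBP-2 array (adjusted p = 0.220 and 0.103). In contrast to Gsta3, the alpha class genes Gsta1, Gsta2 and Gsta4 passed in no comparison. Gsta2 stood at 0.56 and Gsta4 at 0.39 in Scap-/-, and Gsta4 was lower in TgSREBP-2 by 0.58 ± 0.09 (limma, adjusted p = 0.00487), just under 1.5-fold.

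Mgst3, a microsomal enzyme that in humans makes leukotriene C4 and reduces lipid hydroperoxides, lies at chr1:167371966-167393841 and was the dimmest member. It had 8.12 and 7.91 in TgSREBP-1a and 7.55 and 7.43 in TgSREBP-2, against 6.95 and 6.84 in wild type. No arrays of the 3 pools overlapped. The increase was 2.17-fold in TgSREBP-1a (1.12 ± 0.10, adjusted p = 3.08e-05) and 1.51-fold in TgSREBP-2 (0.59 ± 0.10, adjusted p = 0.00812, both limma). Scap-/- livers had 7.41 and 7.60 against 6.78 and 6.89 in chow-fed wild type, a 1.59-fold increase (0.67 ± 0.10, limma, adjusted p = 0.00474). Mgst3 was thus higher than its wild type both where nuclear SREBP was added and where SCAP was removed.

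The Mgst3 calls in TgSREBP-2 and Scap-/- were lost when some single arrays were left out. Without TgSREBP-2 replicate 1 or wild type replicate 2 the TgSREBP-2 difference was 0.53 and 0.54 (adjusted p = 0.0837 and 0.0574, over a range of 1.81e-04 to 0.157). Without Scap-/- replicate 2 or wild type replicate 1 the Scap-/- difference was 0.58 and 0.62 (adjusted p = 0.0699 and 0.0829, over a range of 8.96e-05 to 0.0829). A second Mgst3 probe set was dark, at log2 signals of 3.51 to 3.77 on all arrays, and did not pass in any comparison. Averaged with it, Mgst3 stood at 0.48, 0.22 and 0.32 in TgSREBP-1a, TgSREBP-2 and Scap-/-, short of 1.5-fold. Mgst1 and Mgst2, the other microsomal genes measured, passed in no comparison.

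The wild type pools themselves differed: on the high-protein diet Gsta3, Gstt1, Gstm3 and Gstm1 were lower than on chow, at least 1.5-fold each (log2 differences -1.05 ± 0.17, -0.92 ± 0.13, -0.89 ± 0.10 and -0.63 ± 0.07, limma, adjusted p = 0.00260, 0.00112, 3.08e-04 and 3.33e-04). That made 4 of 6 members, where 5.62% of all genes passed, 1.28% higher and 4.34% lower. Gstp1 stood at -0.40 ± 0.08, short of 1.5-fold, and Mgst3 at 0.06 ± 0.10. The second probe sets did not pass, with Gstm1 at 0.19 ± 0.08 and Gstm3 at -0.39 ± 0.18 (adjusted p = 0.142), and with its probe sets averaged Gstm1 stood at -0.22, short of 1.5-fold. Macrophage marker sums, 2760 to 2767 on the high-protein diet and 4032 to 4294 on chow, were lower in the same comparison, and their part was not tested. Diet, age, injection and mouse stock differ between these pools at once and cannot be told apart. Set beside chow-fed wild type, TgSREBP-1a arrays overlapped it in Gstt1 (means 9.86 and 9.98) and lay wholly above it in Gstm1 (13.12 and 12.76) and Gstm3 (11.28 and 10.03), with no test made across the diets.

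Of 18 transferase genes measured in all, 12 lay outside the 6 members. In TgSREBP-1a Gstt2 and Gstm6 rose, 2 of 12 where 7.37% of all genes passed, and in TgSREBP-2 limma called 0 of 12, with 6 at an unadjusted p under 0.05 and Gsta4 alone at an adjusted p under 0.05. In Scap-/- Gstm6 fell by 1.67-fold (limma, adjusted p = 2.83e-04), 1 of 12 where 1.66% of all genes passed. The medians of the 12 were -0.02, -0.05 and -0.06 in the 3 comparisons with wild type. Gsto1, the omega class gene, was at -0.10 in TgSREBP-1a and 0.45 in TgSREBP-2.

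**Figure D4:**
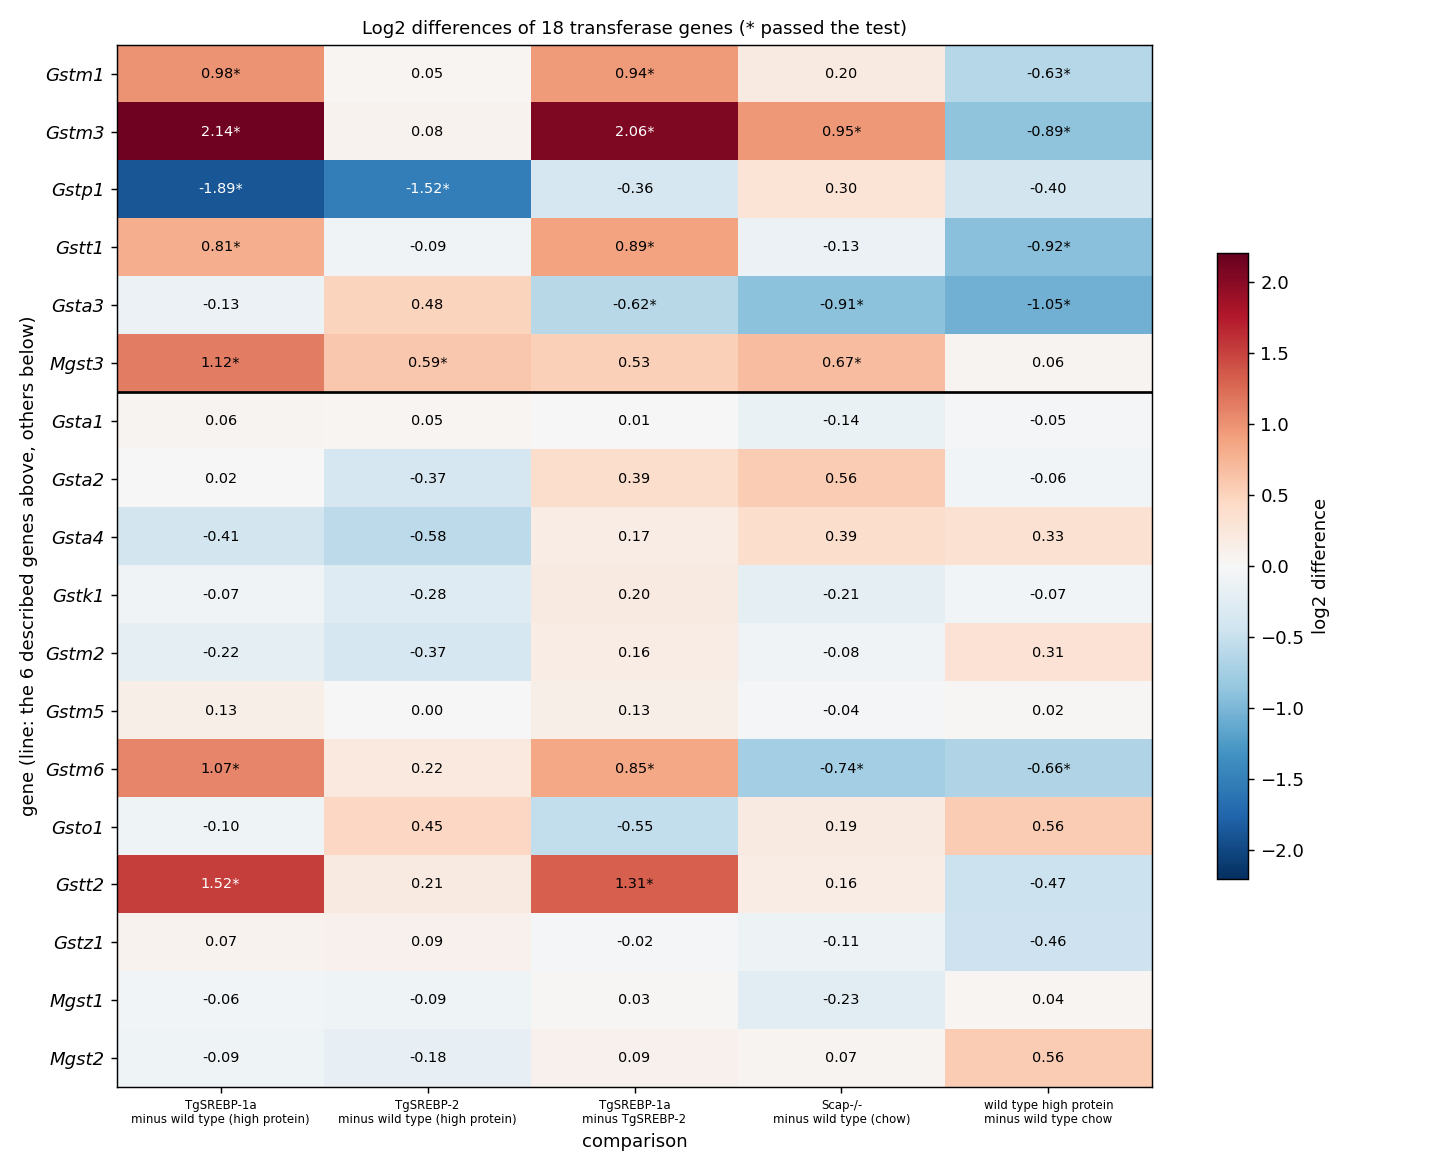
Log2 differences of the 18 measured transferase genes (rows; 6 members above the line) in the 5 comparisons (columns), each gene on its brightest probe set; an asterisk marks a difference that passed the test. Stars stand in 7 rows in the TgSREBP-1a column and in 2 in the TgSREBP-2 column.

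Genes that make and use glutathione moved in both directions. Of 14 measured genes of its synthesis and recycling, 3 rose and 1 fell in TgSREBP-1a: Ggct, which breaks down gamma-glutamyl peptides (1.41 ± 0.18), and the glutathione peroxidases Gpx3 (1.06 ± 0.09) and Gpx4 (0.82 ± 0.15) rose. Gclm, the modifier subunit of the enzyme that limits glutathione synthesis, fell by 0.80 ± 0.11 in the same livers. Gpx4, which reduces lipid peroxides, also rose in TgSREBP-2 (1.03 ± 0.15), 1 of 14. Limma called 0 of 14 in Scap-/-, with 4 at an unadjusted p under 0.05 and a median of 0.09. Of 4 exporters of conjugates, Abcc3 rose in TgSREBP-1a (0.89 ± 0.09), and Abcc3, Abcc2 and Abcg2 rose in TgSREBP-2 (0.93 ± 0.09, 0.81 ± 0.11 and 0.73 ± 0.17). The call of Abcg2 was lost without TgSREBP-2 replicate 1, without either wild type array and with only arrays of the same diet in the fit (limma, adjusted p = 0.109 to 0.257).

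Known NRF2 targets outside the transferases were called in both directions in TgSREBP-1a. Of 14 measured, 2 rose and 2 fell in TgSREBP-1a, 3 rose in TgSREBP-2 and 1 rose in Scap-/-, with medians of 0.03, 0.02 and 0.15. These counts are not separate from those above. Gclm is also on the list of synthesis and recycling, and Abcc2 and Abcc3 are also counted as exporters. Ugdh, which makes UDP-glucuronic acid, was called in all 3, at 1.23 ± 0.15, 1.22 ± 0.15 and 0.74 ± 0.15, although leaving out any 1 of the 4 Scap set arrays ended its call there (limma, adjusted p = 0.0798 to 0.257). Gclm and Srxn1, the sulfiredoxin gene, fell in TgSREBP-1a, Srxn1 by 0.88 ± 0.09 on its brightest probe set but at 0.16 over the mean of its probe sets. Of 10 targets of CAR, PXR and AhR, 3 rose and 2 fell in TgSREBP-1a. Cyp3a11, a main drug-oxidising cytochrome, rose by 2.00 ± 0.14, and Cyp1a2 fell by 1.69 ± 0.08. The list shares Cyp2b9 with the female-biased genes. In TgSREBP-2 2 rose and 1 fell, and in Scap-/- limma called 0 of 10, with 4 at an unadjusted p under 0.05 and a median of 0.08.

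Among the members, Gstm1 and Gstm3 were most alike over the 10 arrays (Pearson r = 0.97), followed by Gstm1 and Gstt1 (0.89). Gstp1 and Mgst3 ran against each other (r = -0.67). Since the 10 arrays are 2 hybridisations of 5 pools, these values rest on 5 independent points and share each array's scaling. Out of 791 genes spanning at least 1 log2 unit, Gstm1 was most like Myl12b (r = 0.98), Tubb2a (0.98) and Nfe2l2 (0.97), and Gstm3 most like Myl12b (0.98), Anxa5 (0.98) and Tubb2a (0.98). Gstp1 was closest to Hsd3b5 (0.97), Hsd17b2 (0.96) and Creld2 (0.96), Gstt1 to an immunoglobulin kappa variable gene (0.94), Cxcl9 (0.91) and Igha (0.91), Gsta3 to Psmb9 (0.94), Tfpi2 (0.92) and Psmb8 (0.88), and Mgst3 to Apoa4 (0.96), Cstb (0.95) and Lgals3 (0.95).

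Nfe2l2, the gene of NRF2, had log2 signals of 8.27 and 8.02 in TgSREBP-1a and 7.12 and 6.91 in TgSREBP-2, against 6.69 and 6.73 in wild type. It rose in TgSREBP-1a by 1.44 ± 0.11 (limma, adjusted p = 6.23e-06), while TgSREBP-2 stood at 0.31 ± 0.11 (limma, adjusted p = 0.161). In Scap-/- it had 8.06 and 8.23 against 7.61 and 7.67, a difference of 0.50 ± 0.11 (limma, adjusted p = 0.0333) short of 1.5-fold. By their means the pools stood as for Gstm3, except that TgSREBP-1a and Scap-/- were level for Nfe2l2 (both 8.145) and their arrays overlapped. The arrays of TgSREBP-2 and its wild type overlapped for Gstm3 but not for Nfe2l2.

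Markers of other cells moved between the same pools. Among all genes 7.37% passed in TgSREBP-1a, 2.57% in TgSREBP-2, 1.66% in Scap-/- and 5.62% between the wild type pools. Of 10 macrophage markers, 5 rose in TgSREBP-1a and 3 in TgSREBP-2, with sums of 4440 to 4664 and 3565 to 3834 linear signal units against 2760 to 2767 in wild type, and limma called 0 in Scap-/- (2 at an unadjusted p under 0.05, sums 3932 to 3996 against 4032 to 4294). All 5 exocrine pancreas markers fell in TgSREBP-1a (sums 886.2 to 906.5 against 12936 to 13222) and in Scap-/- (1389 to 1422 against 6396 to 6437), the 2 pools in which Gstm3 rose. In TgSREBP-2 their sums were 17806 to 17947, where hepatocyte marker sums were 45001 to 46366. Of 8 hepatocyte markers limma called Ttr in TgSREBP-1a, lower by 1.37 ± 0.10. There 6 of the 8 had an unadjusted p under 0.05, with a median of -0.29. Limma called 0 of them in TgSREBP-2 and in Scap-/- (1 and 3 at an unadjusted p under 0.05). Between the wild type pools Fgb was higher (0.73 ± 0.13) and Ttr lower (-0.69 ± 0.10) on the high-protein diet, 4 of 10 macrophage markers were lower (median -0.56) and 4 of 5 exocrine pancreas markers higher (median 1.06). The part of these cells in the transferase results was not tested.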

How the data were processed

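Liver RNA of 5 pools was measured on 10 Affymetrix MG_U74Av2 arrays, 2 per pool. The deposited values are log2 signals of 12488 probe sets in 1 table. RMA is named for them per the submitters' processing notes, with no version stated there, although the series' design text names Microarray Suite 5.0. RMA fits and compresses signals across arrays, so fold changes of very bright or dim genes may be understated. Of the probe sets, 10833 had 1 gene symbol, 396 several and 1193 none, besides 66 controls; only the first were used, with symbols updated by gene ID through RefSeq (GRCm38.p6), and each of 8251 genes took its probe set with the highest mean. Detection calls were not used here.

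All 10 arrays entered 1 fit in R 4.3.3 (limma 3.58.1, lmFit and eBayes), 1 coefficient per group and 5 residual degrees of freedom, with no block, in 5 contrasts. Genes passed at an adjusted p under 0.05 and at least 1.5-fold. The fit was tried on simulated data with noise drawn independently for each array, at equal spread in all groups. That simulation held neither the shared deviations nor the unequal spread of these data. The fit shares 1 variance per gene while duplicates lay farther apart in the high-protein groups, and the number of arrays limits the precision. Same-numbered arrays deviated together within the high-protein set (correlations 0.46 to 0.61) and the chow set (0.30) but not between them (-0.48 to -0.12), so a block was tried within sets. Other alternatives were a variance trend, a filter on genes under a mean of 6, averaged probe sets, quantile normalization, fewer arrays in the fit, array weights, each array left out, and, added after seeing the data, every probe set tested. Named genes are the 6 members, the 3 genes most correlated with each, and up to 4 called genes of largest difference per list; others were chosen after their values were seen. Members and lists were chosen with earlier results of these data known.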

Additional observations from a re-analysis of the deposited data

Results flagged for a closer look

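The members differed unequally between the transgenic pools, which share their wild type pool, by the direct test. Isoform and transgenic line cannot be told apart here. In TgSREBP-1a against TgSREBP-2, Gstm3 differed by 2.06, Gstm1 by 0.94 and Gstt1 by 0.89 on the log2 scale, each higher in TgSREBP-1a. With both Gstm1 probe sets averaged its difference was 0.58, short of 1.5-fold. Gsta3 differed by -0.62, lower in TgSREBP-1a, and kept its call in 5 of 12 alternatives. The amount of nuclear SREBP in each line was not analysed here. Groups of 2 arrays are too small for a test of outlying arrays.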

How the results depend on the processing

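Of 360 recomputed member differences, from 30 results under 12 alternatives each, 331 kept their direction and their side of the threshold, and 17 of the 30 results did so in every alternative run. Among these were the increase of Gstm3 in TgSREBP-1a (1.94 to 2.23) and in Scap-/- and the falls of Gstp1 in TgSREBP-1a (-1.95 to -1.82) and TgSREBP-2 (-1.62 to -1.46). Averaging all probe sets of a gene left 3 members called in TgSREBP-1a in place of 5, and 1 in TgSREBP-2 in place of 2. Mgst3 has a dim second probe set and that of Gstm1, brighter than 65.5% of genes, did not pass. Gsta3, Gstp1 and Gstt1 have 1 probe set each, so averaging could not change their differences. In the counts above, a difference not called was counted as kept if it stayed so with its sign. Quantile normalization also left 1 in TgSREBP-2, with Mgst3 at 0.58. Leaving out 1 array gave 1 to 2 calls in Scap-/- in place of 3, 1 to 2 in TgSREBP-2, 5 to 5 in TgSREBP-1a, 3 to 4 between the transgenic pools and 4 to 4 between the wild type pools; the lone array left is then assumed to vary like the others.

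Differences near 0 changed sign: Gstm1 in TgSREBP-2 with averaged probe sets (-0.077) or quantile normalization (-0.077) and Gstm3 in TgSREBP-2 with quantile normalization (-0.049). With single arrays left out, Gsta3 in TgSREBP-1a ranged from -0.43 to 0.16, Gstm3 in TgSREBP-2 from -0.018 to 0.18 and Gstt1 in Scap-/- from -0.28 to 0.027. Srxn1, called lower on its brightest probe set, stood at 0.16 in TgSREBP-1a and 0.10 between the transgenic pools over the mean of its probe sets. The cause was not tested. With the replicate number as a block within sets no member call changed, and the counts stayed at 5, 2, 4, 3 and 4. Mgst3 between the transgenic pools (0.53) passed without TgSREBP-1a replicate 2 (0.63) or TgSREBP-2 replicate 1 (0.59).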
